A study of Homo sapiens with 8 samples.

Results

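The genes described here are 37 genes of glycolysis and of the response to low oxygen. They were chosen by name, with earlier results of these data known, and followed in MIA PaCa-2 and Capan-1, lines of pancreatic cancer cells. They are 37 of the 27274 genes on the array and were found as the non-control probes whose gene name is one of the 37, which gave 47 probes on 83 spots, with 27 genes having 1 probe. The study asked what depletion of the homeobox transcription factor HOXB7 does to pancreatic cancer cells. Both lines derive from pancreatic ductal adenocarcinoma, and Capan-1 was established from a liver metastasis. RNA was labelled with Cy3 and hybridised to 8 one-color Agilent arrays in 4 groups of 2 arrays each. The groups were parental MIA PaCa-2 cells, parental Capan-1 cells, and each line 48 h after transfection with HOXB7-specific siRNA at 10 nM. The parental cells were untreated controls and had no scrambled siRNA on any array, so the siRNA and the act of transfection cannot be told apart. MIA PaCa-2 was kept in RPMI 1640 medium with 10% fetal bovine serum and Capan-1 in IMDM medium with 20%, so medium and cell line cannot be told apart either. The methods also plate the cells for transfection in RPMI medium, without saying whether parental Capan-1 cells were moved to it. A level below is the log2 signal of a probe minus the 75th percentile of its array, so that 0 marks that percentile, and levels of different probes are not compared.

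Glycolysis breaks glucose down to pyruvate in the cytosol. Glucose enters through transporters of the SLC2A family, is trapped and split by the upper enzymes from hexokinase to triosephosphate isomerase, and yields ATP in the lower steps from GAPDH to pyruvate kinase. Lactate dehydrogenase then turns pyruvate into lactate, which leaves through SLC16A carriers. PDK1 limits the oxidation of pyruvate in the mitochondria by inhibiting pyruvate dehydrogenase. In low oxygen the prolyl hydroxylases of the EGLN family no longer mark the alpha subunits HIF1A and EPAS1 for breakdown, and the stabilised factors bind the short core motif of hypoxia response elements near many of these genes. Pancreatic ductal adenocarcinoma is known as a poorly perfused tumor that relies on glycolysis. None of the culture conditions given for these arrays was labelled as hypoxic, and the arrays measure transcripts, not flux or HIF protein.

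The promoters are shown because most of the genes differed in one direction between the lines and the core motif is known from this class of genes. RefSeq promoters of GRCh38.p14 were found for 33 of the 37 genes, 60 promoters in all, and not for BNIP3L, NDRG1, SLC16A1 and SLC2A3. The 250 bases before each start were searched for ACGTG and GCGTG on both strands, and a match of ACGTG can also be part of CACGTG, the E-box bound by MYC. At least 1 of the 2 letter strings was found in 35 of the 60 promoters (58.3%) against 43.2% of the 35116 promoters in the table, and 27 of the 33 genes had it in at least 1 promoter. ACGTG alone was in 36.7% of the genes' promoters and 18.5% of all, GCGTG in 31.7% and 32.2%, and CACGTG in 13.3% and 6.34%. Either string was in 28 of 48 promoters of genes called higher in MIA PaCa-2 (58.3%) and in 4 of 7 of genes called lower (57.1%). Promoters of one gene overlap or lie close together, so these shares are descriptions. The 6 printed below are those with the largest differences between the parental lines in each direction among genes with 1 promoter in the table, 3 higher and 3 lower in MIA PaCa-2, read 5′ to 3′ on the strand of the gene and ending at the base before its start, with capitals marking the 2 strings on either strand.
ENO2, higher in MIA PaCa-2, chr12:6914330-6914579, plus strand: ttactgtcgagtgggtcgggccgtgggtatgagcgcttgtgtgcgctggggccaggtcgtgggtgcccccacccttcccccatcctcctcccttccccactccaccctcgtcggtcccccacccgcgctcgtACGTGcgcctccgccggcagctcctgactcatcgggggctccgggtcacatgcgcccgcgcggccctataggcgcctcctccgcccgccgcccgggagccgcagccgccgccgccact
PFKFB4, higher in MIA PaCa-2, chr3:48556804-48557053, minus strand: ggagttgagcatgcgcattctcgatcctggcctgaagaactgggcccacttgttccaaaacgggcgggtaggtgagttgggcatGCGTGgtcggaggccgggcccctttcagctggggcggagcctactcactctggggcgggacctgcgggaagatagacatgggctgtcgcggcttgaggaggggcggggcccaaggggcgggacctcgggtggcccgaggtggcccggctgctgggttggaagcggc
PGK1, higher in MIA PaCa-2, chrX:78103998-78104247, plus strand: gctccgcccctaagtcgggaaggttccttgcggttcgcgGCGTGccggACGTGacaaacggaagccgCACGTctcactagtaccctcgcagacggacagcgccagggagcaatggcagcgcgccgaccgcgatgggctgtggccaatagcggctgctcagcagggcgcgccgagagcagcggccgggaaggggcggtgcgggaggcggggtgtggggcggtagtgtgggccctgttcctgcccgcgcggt
EGLN3, lower in MIA PaCa-2, chr14:33951075-33951324, minus strand: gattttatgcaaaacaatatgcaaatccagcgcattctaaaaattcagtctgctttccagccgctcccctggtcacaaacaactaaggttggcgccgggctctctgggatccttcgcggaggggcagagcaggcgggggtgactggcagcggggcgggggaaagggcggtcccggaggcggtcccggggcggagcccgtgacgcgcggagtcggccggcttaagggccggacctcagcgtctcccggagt
EPAS1, lower in MIA PaCa-2, chr2:46297157-46297406, plus strand: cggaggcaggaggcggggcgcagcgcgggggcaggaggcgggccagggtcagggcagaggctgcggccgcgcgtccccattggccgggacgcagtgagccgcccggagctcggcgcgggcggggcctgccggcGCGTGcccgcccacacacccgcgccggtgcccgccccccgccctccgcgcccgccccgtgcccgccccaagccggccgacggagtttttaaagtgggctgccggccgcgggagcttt
CA12, lower in MIA PaCa-2, chr15:63381847-63382096, minus strand: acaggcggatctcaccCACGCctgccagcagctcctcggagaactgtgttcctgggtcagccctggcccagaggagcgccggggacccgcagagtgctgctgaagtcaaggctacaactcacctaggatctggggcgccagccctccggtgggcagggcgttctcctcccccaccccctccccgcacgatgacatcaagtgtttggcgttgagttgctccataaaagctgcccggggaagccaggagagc
PGK1 held 3 matches in this window, ENO2, PFKFB4, EPAS1 and CA12 held 1 each, and in EGLN3 these letters were not found.

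Of the probes, 4 are shown because a result below rests on what they match. They are 60 bases long, with coordinates in hg18 as the array's design gives them, and each holds at least 1 reading frame without a stop codon.
SLC2A3, chr12:7966858-7968302: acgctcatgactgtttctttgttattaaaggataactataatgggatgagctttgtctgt
LDHB, chr12:21682572-21682631: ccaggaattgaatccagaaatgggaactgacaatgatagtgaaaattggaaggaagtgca
LDHA, chr9:14911817-14911876: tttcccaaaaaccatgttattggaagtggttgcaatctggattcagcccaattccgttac
HIF1A, chr14:61281225-61281284: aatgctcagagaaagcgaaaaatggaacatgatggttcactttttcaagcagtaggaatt
The SLC2A3 probe covers 1445 bases of genome with 60 bases of transcript and so crosses an exon junction. The LDHA probe was placed by the design on chromosome 9, while the other LDHA probe lies on chromosome 11 at 18385365 to 18385424, so it may match a copy of the gene and its values are uncertain.

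On the arrays as a whole, 69.2% to 74.3% of the spots were well above background, and duplicate arrays correlated at 0.995 to 0.997 over 20276 probes. The labels do not say whether the 2 arrays of a group came from separate cultures, so p-values measure only the spread between these arrays, which may be technical. Each line filled 1 slide of 4 arrays, with siRNA at positions 1 and 2 and parental cells at 3 and 4, so slide and cell line, and position and treatment, cannot be told apart. HOXB7 was 3.32 lower on the log2 scale after siRNA in MIA PaCa-2 (adjusted p = 0.0129), at least 2.81-fold since it was not well above background there, and 2.62 lower in Capan-1 (adjusted p = 0.0892). All 7 markers of duct epithelium were lower in MIA PaCa-2, with a summed linear level of 337 to 368 in the parental arrays against 1168 to 1237 in Capan-1, and the defining markers EPCAM and CDH1 were not well above background in MIA PaCa-2. Of 4 mesenchymal markers, VIM and ZEB1 were higher and CDH2 and FN1 lower in MIA PaCa-2 (summed level 237 to 260 against 2.10 to 2.32). The fibroblast markers summed to 13.9 to 14.7 against 0.0755 to 0.101, a sum set by COL1A2, with COL3A1 also higher, COL1A1 2.16-fold lower and PDGFRB not well above background on any array. The leukocyte markers summed to 6.04 to 6.15 against 1.94 to 2.09, with CD14, CD79A and PTPRC higher and CD3E 2.69-fold lower. The endothelium markers summed to 0.405 to 0.417 against 0.299 to 0.309, with CDH5 higher, VWF 1.18-fold lower and PECAM1 not tested. COL1A1, FN1 and VWF did not pass with normexp background correction. The part of these markers in the differences between the lines was not tested.

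The first comparison asks how the untreated lines differ. Most of the 37 genes were higher in parental MIA PaCa-2 than in parental Capan-1: 26 of the 35 tested genes were higher (74.3%) and 6 were lower (17.1%), where 40.2% of all genes tested were higher and 31.9% lower. The median difference of the 35 genes was 1.04 on the log2 scale against 0.10 over all 20122 genes tested. Since the genes were chosen with earlier results of these data known, these shares and medians are descriptions. Every step from hexokinase to enolase had at least 1 enzyme gene that was higher in MIA PaCa-2, while HIF1A, EPAS1, EGLN3, CA9, CA12 and SLC2A1 were lower there. Both MIA PaCa-2 arrays were above both Capan-1 arrays for 27 of 35 genes by their brightest probe (77.1%), against 47.2% of all genes, and below for 6 (17.1%), against 39.2% of all genes. Permuting 2 arrays against 2 exactly cannot give a p below 0.333, so the p-values given are from limma, which pools the spread over probes, adjusted over all probes tested. Of the 37 genes, 33 were well above background on all 8 arrays, while SLC2A3 and EGLN3 were tested only through the line in which they were bright and so had to differ. Their p-values are therefore not given, though both are in the counts of 26 and 6. With only probes well above background on all arrays compared, 25 of these genes were higher and 5 lower, against 6864 and 5126 of all genes. Differences are MIA PaCa-2 minus Capan-1 on the log2 scale with their standard error.

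**Figure D1:**
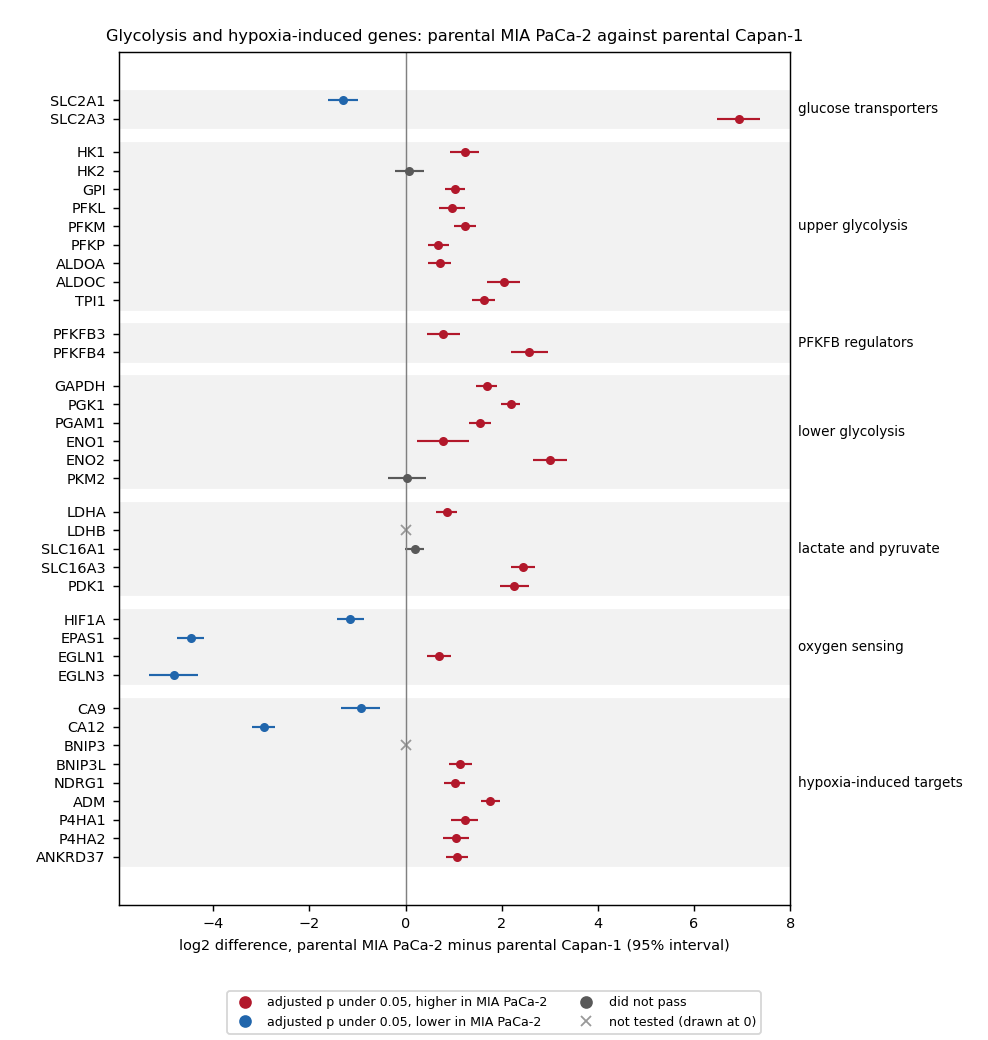
Differences between parental MIA PaCa-2 and parental Capan-1 on the log2 scale for the 37 genes by role, brightest probe of each, with 95% intervals from limma. Of the 35 genes tested, 26 lie to the right of 0 with adjusted p under 0.05 and 6 to the left, and SLC2A3 at 6.92 and EGLN3 at -4.82 are at the ends.

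The 2 glucose transporters went opposite ways. SLC2A3, a high-affinity transporter best known from neurons, read -0.75 and -0.72 on the parental MIA PaCa-2 arrays and -7.55 and -7.78 on the parental Capan-1 arrays, where it was not well above background. It was therefore at least 36.0-fold higher in MIA PaCa-2 (log2 difference 6.92 ± 0.18), and by the exon-junction probe printed above at least 8.53-fold higher. With normexp background correction, whose offset draws dim values together by construction, the differences were smaller, 2.10 and 0.81 on the log2 scale. SLC2A1, the widespread basal transporter, was 1.87 and 2.19 in MIA PaCa-2 and 3.34 and 3.31 in Capan-1. It was 2.45-fold lower in MIA PaCa-2 (-1.29 ± 0.13, adjusted p = 0.000202), and the arrays of the lines did not overlap for either gene.

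**Figure D2:**
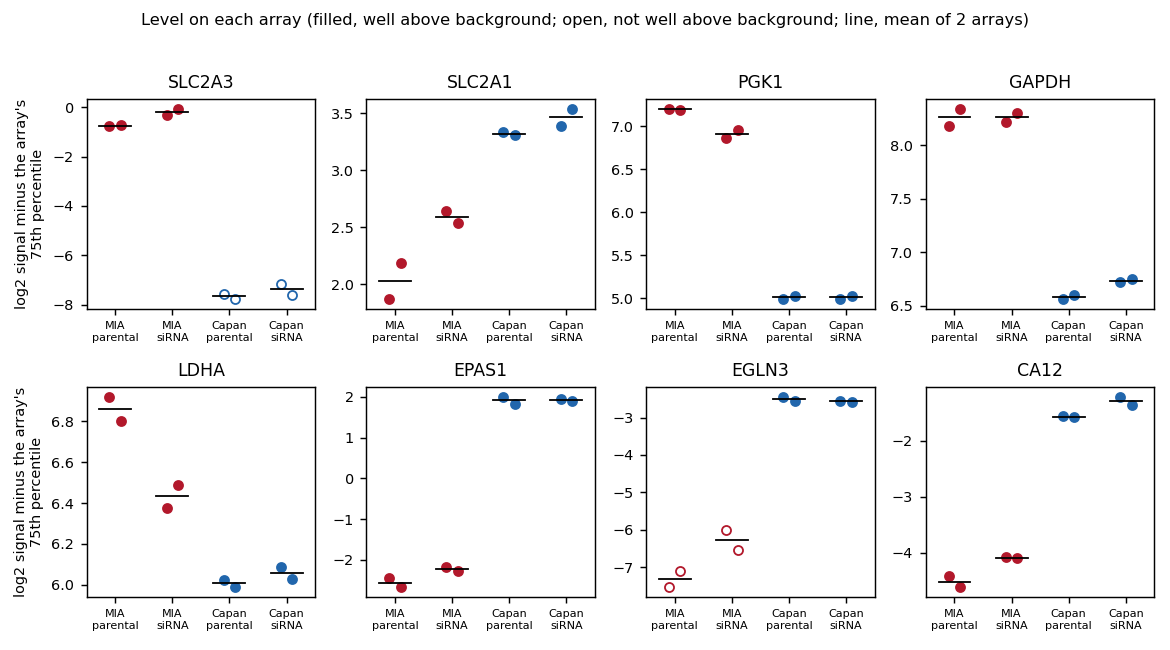
Level of 8 of the genes on each of the 8 arrays, as log2 signal minus the 75th percentile of the array, with a separate vertical scale for each gene. The lines are far apart for SLC2A3, PGK1, EPAS1, EGLN3 and CA12. For these genes the siRNA arrays lie nearer to their own parental line than to the other line. In MIA PaCa-2 the siRNA and parental means differ by -0.43 for LDHA and 0.56 for SLC2A1. The parental lines differ by 0.85 and -1.29 for these genes.

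Among the upper enzymes, 8 of 9 were higher in MIA PaCa-2, where 40.2% of all genes were higher, with a median difference of 1.04. HK1, the widespread hexokinase that phosphorylates glucose, read 2.97 and 2.73 against 1.59 and 1.64 (1.23 ± 0.13, adjusted p = 0.000244). HK2, its inducible relative, read 2.29 and 2.58 against 2.33 and 2.39, the arrays overlapped and the difference did not pass (0.076 ± 0.12, 95% interval -0.23 to 0.38, adjusted p = 0.607). The isomerase GPI read 6.78 and 6.86 against 5.74 and 5.82 (1.04 ± 0.085, adjusted p = 8.71e-05). All 3 subunit genes of phosphofructokinase, the main control point of the pathway, were higher. PFKM, the muscle form, was 3.62 and 3.62 against 2.37 and 2.40 (1.23 ± 0.092, adjusted p = 5.8e-05). PFKL, the liver form, was 2.73 and 2.72 against 1.88 and 1.64 (0.96 ± 0.11, adjusted p = 0.00041). For PFKP, the platelet form, the values were 5.19 and 5.31 against 4.52 and 4.63 (0.68 ± 0.089, adjusted p = 0.000735).

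The aldolases, which split fructose 1,6-bisphosphate, were both higher. ALDOC, the form known from brain, read 2.18 and 1.96 against -0.015 and 0.079 (2.04 ± 0.14, adjusted p = 4e-05). ALDOA, the muscle form, read 6.73 and 6.76 against 6.07 and 6.0 (0.71 ± 0.097, adjusted p = 0.000843). Triosephosphate isomerase, TPI1, was 7.22 and 7.28 against 5.61 and 5.64 (1.63 ± 0.097, adjusted p = 2.19e-05). The arrays of the 2 lines did not overlap for these 3 genes. Both bifunctional enzymes that set fructose 2,6-bisphosphate, the activator of phosphofructokinase, were higher as well. PFKFB4 read 1.45 and 1.01 against -1.35 and -1.33, 5.95-fold (2.57 ± 0.16, adjusted p = 2.52e-05). PFKFB3 read 0.92 and 1.29 against 0.29 and 0.35 (0.79 ± 0.14, adjusted p = 0.00261), and its second, dimmer probe differed by 0.71 ± 0.19.

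In the lower part of the pathway 5 of 6 genes were higher, against 40.2% of all genes, with a median difference of 1.62. GAPDH, the dehydrogenase that opens the energy-yielding steps and is a common loading control, read 8.19 and 8.34 in MIA PaCa-2 and 6.56 and 6.60 in Capan-1, a 3.22-fold difference (1.69 ± 0.090, adjusted p = 1.35e-05). PGK1, the first enzyme to make ATP, read 7.20 and 7.18 against 4.99 and 5.03, 4.54-fold (2.18 ± 0.078, adjusted p = 2.86e-06). The phosphoglycerate mutase PGAM1 read 5.75 and 5.88 against 4.21 and 4.33 (1.55 ± 0.096, adjusted p = 2.64e-05), with 1.62 ± 0.16 by its second probe. ENO2, the enolase known as a neuronal marker, read 1.92 and 1.73 against -1.19 and -1.16, 8.0-fold (3.0 ± 0.14, adjusted p = 8.94e-06). The widespread enolase ENO1 read 6.84 and 6.68 against 5.96 and 5.99 (0.78 ± 0.22, adjusted p = 0.0192), and it missed the threshold with any 1 of the 4 parental arrays left out (adjusted p 0.0528 to 0.0859). The pyruvate kinase gene, listed as PKM2, was the exception at 6.18 and 5.86 against 5.92 and 6.07, overlapping values whose difference of 0.025 ± 0.16 did not pass (95% interval -0.37 to 0.42, adjusted p = 0.899).

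At the exit of the pathway, LDHA, the subunit of lactate dehydrogenase that favors lactate formation, read 6.92 and 6.80 in MIA PaCa-2 and 6.02 and 5.99 in Capan-1 (0.85 ± 0.088, adjusted p = 0.00024). LDHB, the subunit that favors the reverse reaction, was not well above background on any of the 8 arrays by either of its 2 probes, with levels of -7.97 to -6.50, and was not tested. SLC16A3, the lactate exporter MCT4, was 6.29 and 6.44 against 4.0 and 3.86, 5.42-fold higher (2.44 ± 0.10, adjusted p = 5.4e-06). SLC16A1, the carrier MCT1, read -0.64 and -0.65 against -0.77 and -0.90, and although the arrays did not overlap the difference did not pass (0.19 ± 0.081, 95% interval -0.0052 to 0.39, adjusted p = 0.0742). SLC16A1 did pass as higher with quantile scaling and with normexp background correction (limma adjusted p = 0.0315). PDK1 read 1.35 and 1.42 against -0.98 and -0.78, 4.81-fold higher (2.27 ± 0.12, adjusted p = 1.35e-05).

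Of the 4 oxygen-sensing genes, 3 were lower in MIA PaCa-2, where 31.9% of all genes were lower. EGLN3, 1 of the 3, was tested only through Capan-1. EPAS1, which encodes HIF-2 alpha, read -2.44 and -2.67 in MIA PaCa-2 and 2.0 and 1.82 in Capan-1, 22.1-fold lower (-4.47 ± 0.12, adjusted p = 8.65e-07). With normexp background correction the EPAS1 difference was -3.35, or 10.2-fold. EGLN3, a prolyl hydroxylase that is itself induced by HIF, read -2.44 and -2.56 in Capan-1 and was not well above background in MIA PaCa-2 at -7.53 and -7.12. It was therefore at least 11.3-fold lower there (-4.82 ± 0.21), with a difference of -0.80 under normexp background correction. HIF1A read 0.95 and 1.19 against 2.19 and 2.25 by its brighter probe (-1.15 ± 0.11, adjusted p = 0.000198). The probe printed above did not pass for HIF1A (-0.42 ± 0.50, adjusted p = 0.479), with parental MIA PaCa-2 values as far apart as -0.58 and 0.95. EGLN1, the main oxygen sensor of the family, was the one that was higher, 1.92 and 2.01 against 1.29 and 1.24 (0.70 ± 0.10, adjusted p = 0.00124).

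The hypoxia-induced targets were split, with 6 of 8 tested higher in MIA PaCa-2 and the 2 carbonic anhydrases lower. Of all genes, 40.2% were higher and 31.9% lower. ADM, which encodes the vasodilator peptide adrenomedullin, read 2.46 and 2.40 against 0.70 and 0.64, 3.39-fold higher (1.76 ± 0.079, adjusted p = 6.76e-06). The collagen prolyl hydroxylase subunit P4HA1 read 1.56 and 1.79 against 0.45 and 0.43 (1.23 ± 0.11, adjusted p = 0.000149), and its relative P4HA2 2.56 and 2.37 against 1.43 and 1.41 (1.04 ± 0.11, adjusted p = 0.000262). BNIP3L, a mitophagy receptor, read 3.24 and 3.39 against 2.17 and 2.17 (1.14 ± 0.099, adjusted p = 0.000111). ANKRD37, a small ankyrin-repeat gene used in hypoxia signatures, read -0.43 and -0.35 against -1.40 and -1.53 (1.07 ± 0.095, adjusted p = 0.000123), and NDRG1, a stress-induced gene linked to differentiation, 2.74 and 2.68 against 1.67 and 1.71 (1.02 ± 0.088, adjusted p = 0.000108). These 6 genes were 2.03-fold to 3.39-fold higher, and their arrays did not overlap between the lines.

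CA12, a membrane carbonic anhydrase that helps to regulate pH outside the cell, read -4.42 and -4.61 against -1.56 and -1.57, 7.73-fold lower in MIA PaCa-2 (-2.95 ± 0.099, adjusted p = 2.26e-06), with -1.03 under normexp background correction. CA9, the carbonic anhydrase most used as a marker of tumor hypoxia, was dim in both lines at -4.83 and -4.86 against -3.99 and -3.83 (-0.94 ± 0.16, adjusted p = 0.00268), and its difference was -0.20 and did not pass with normexp background correction (adjusted p = 0.0818). BNIP3, the relative of BNIP3L, was well above background on 1 of the 8 arrays, a parental MIA PaCa-2 array, and was not tested.

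**Figure D3:**
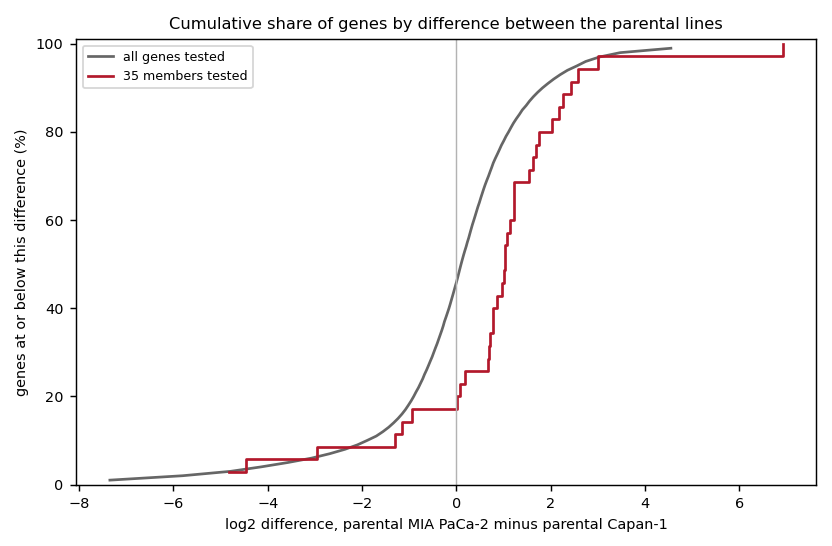
Cumulative share of genes by their log2 difference between parental MIA PaCa-2 and parental Capan-1, for all 20122 genes tested and for the 35 tested genes described here, brightest probe of each. The step curve runs to the right of the smooth one over most of its range, with medians of 1.04 and 0.10, and meets it at the low end, where EGLN3, EPAS1 and CA12 lie.

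Wider lists of the same pathways were read beside these genes. The lists were also chosen with earlier results of these data known, so their shares are descriptions and not independent support. Of 38 further genes of glycolysis and pyruvate use that were tested, 18 were higher in MIA PaCa-2 (47.4%) and 13 lower (34.2%), near the 40.2% and 31.9% of all genes, with a median difference of 0.26. FBP1, the gluconeogenic enzyme that opposes phosphofructokinase, was at least 108-fold lower in MIA PaCa-2, where it was not well above background. SLC16A7, the carrier MCT2, was also lower (-3.04), with 1 of the 2 parental MIA PaCa-2 arrays well above background. BRP44L, a subunit of the mitochondrial pyruvate carrier, was 3.29-fold lower, and the hexokinase-related HKDC1 was 1.95-fold lower. Higher genes were PDHA1, a pyruvate dehydrogenase subunit, at 3.06-fold, PDK3, which inhibits that complex, at 3.10-fold, and PCK1, a gluconeogenic enzyme, at 3.83-fold or more. PGAM2 and PGAM4 were 2.87-fold and 2.24-fold higher, but as close relatives of PGAM1 their probes may share its transcript.

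Of 16 further oxygen-sensing genes tested, 6 were higher (37.5%) and 6 lower (37.5%), again near the shares of all genes. ARNT2, a partner of the HIF alpha subunits, differed by -5.68 on the log2 scale, a size that is not firm since 1 of the 2 parental MIA PaCa-2 arrays had it well above background and its second probe was too dim to be tested. P4HTM, a membrane-bound prolyl hydroxylase, was 9.01-fold lower, and the coactivator CREBBP was 3.01-fold lower. CITED2, which competes with HIF for coactivators, was 7.53-fold higher, and the inhibitory relative HIF3A 2.43-fold higher. With normexp background correction this CITED2 probe was 7.03-fold higher and another CITED2 probe 2.24-fold higher. HIF1AN, which blocks HIF transactivation, was 1.79-fold higher and VHL, which recognises hydroxylated HIF, 1.4-fold higher. EGLN2, SIAH2 and TCEB1 were 1.35-fold to 1.59-fold lower.

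Of 39 further hypoxia-induced genes tested, 23 were higher (59%) and 13 lower (33.3%), against 40.2% and 31.9% of all genes, with a median of 0.90. LOXL2, a collagen cross-linking oxidase, was 41.2-fold higher in MIA PaCa-2, ANGPTL4, a lipoprotein lipase inhibitor, 10.7-fold, GBE1, the glycogen branching enzyme, 7.79-fold and SPAG4 7.17-fold. The chemokine receptor CXCR4 was at least 8.41-fold higher, C7orf68, a lipid droplet protein gene now named HILPDA, 4.29-fold higher and KDM4B, a histone demethylase, 4.02-fold higher. With normexp background correction this KDM4B probe was 4.08-fold higher, but another KDM4B probe was only 1.19-fold higher. Lower genes included INHBA, an activin subunit, at -6.34 with 1 of the 2 parental MIA PaCa-2 arrays well above background, MET, the receptor of hepatocyte growth factor, at 12.3-fold and TMEM45A at 11.4-fold. Dim genes of the 3 lists came closer together with normexp background correction: the folds became 8.51 for FBP1, 8.11 for ARNT2, 5.89 for INHBA, 1.64 for CXCR4, 1.54 for SLC16A7 and 1.23 for PCK1, in the same directions. These genes were tested only through the line in which they were bright and so had to differ, and the counts of the lists include them.

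The second comparison asks what HOXB7 siRNA did to these genes in MIA PaCa-2. Of the 34 genes tested, limma called 0 higher and 0 lower, where 1.6% of all genes tested were called higher and 1.63% lower, and 10 genes (29.4%) had an unadjusted p under 0.05, against 24.4% of all genes, of which 7 were higher and 3 lower. An interval rule modelled on that of the study, which compares each array pair with the spread between untreated duplicates, called 0 of 8 genes with 2 or more probes and 0 of 33 with single probes allowed. It called 0.16% and 0.619% of all eligible genes, and details of the rule not given in the sources used here were chosen for this purpose. The 2 siRNA arrays were both above the 2 parental ones for 11 genes (32.4%) and below for 10 (29.4%), against 28% and 23.8% of all genes. The median difference was 0.034 against 0.019 over all genes. Without scaling the medians were -0.18 and -0.20. With normexp background correction they were -0.016 and 0.072, so the order of the medians turned around. Genes of lower glycolysis lay at or below their parental level by their brightest probe. Of these, 4 of 6 were below on both arrays, with a median of -0.27. Both glucose transporters lay above by their brightest probe. The exon-junction probe of SLC2A3 overlapped between the groups (0.20 ± 0.22).

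The 5 genes with the smallest p in MIA PaCa-2 did not pass. LDHA read 6.92 and 6.80 in parental cells and 6.38 and 6.49 after siRNA (-0.43 ± 0.087, adjusted p = 0.062), and its uncertain second probe differed by -0.45 ± 0.14. ANKRD37 read -0.43 and -0.35 and then -0.026 and 0.11 (0.44 ± 0.094, adjusted p = 0.0704). For SLC2A1 the values were 1.87 and 2.19 before and 2.64 and 2.54 after (0.56 ± 0.13, adjusted p = 0.0795). In none of these 3 did the siRNA and parental arrays overlap. CA12 read -4.42 and -4.61 before and -4.08 and -4.10 after (0.43 ± 0.098, adjusted p = 0.0809), and HK2 2.29 and 2.58 before and 2.90 and 2.99 after (0.51 ± 0.12, adjusted p = 0.0879), again without overlap. CA12 was dim in this line, and its difference was 0.18 with normexp background correction.

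With normexp background correction, ANKRD37, HK2 and SLC2A1 passed as higher (8.82%) and LDHA and PGAM1 as lower (5.88%), where 2.29% of all genes were called higher and 2.64% lower. When the spread was let follow intensity PGK1 was added to the lower genes, and 3.08% of all genes were called higher and 3.55% lower. PGAM1 read 5.75 and 5.88 before and 5.38 and 5.48 after siRNA (-0.38 ± 0.095), with -0.53 ± 0.16 by its second probe, and PGK1 7.20 and 7.18 before and 6.86 and 6.96 after (-0.28 ± 0.078). GAPDH, by contrast, overlapped between the groups at 8.19 and 8.34 before and 8.22 and 8.31 after, with a 95% interval of the difference from -0.22 to 0.22. In the wider lists, with the scaling and fit used throughout, 2 of 37 glycolysis genes were called lower after siRNA (5.41%). Of all genes, 1.63% were called lower there. They were the muscle enolase ENO3 (-1.08 ± 0.081, adjusted p = 0.0127) and the D-lactate dehydrogenase LDHD (-0.73 ± 0.094, adjusted p = 0.0253). Of 16 oxygen-sensing genes 1 was called lower, ARNT, the constitutive partner of the HIF alpha subunits (-0.91 ± 0.15, adjusted p = 0.0397), and of 35 further hypoxia-induced genes none was called. Among the markers, MUC1, a duct mucin, was called lower (-0.92 ± 0.095, adjusted p = 0.0191), and its part in these differences was not tested. With same-numbered arrays treated as a block, or with the MIA PaCa-2 arrays alone, no gene on the array was called, ENO3, LDHD, ARNT and MUC1 included.

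**Figure D4:**
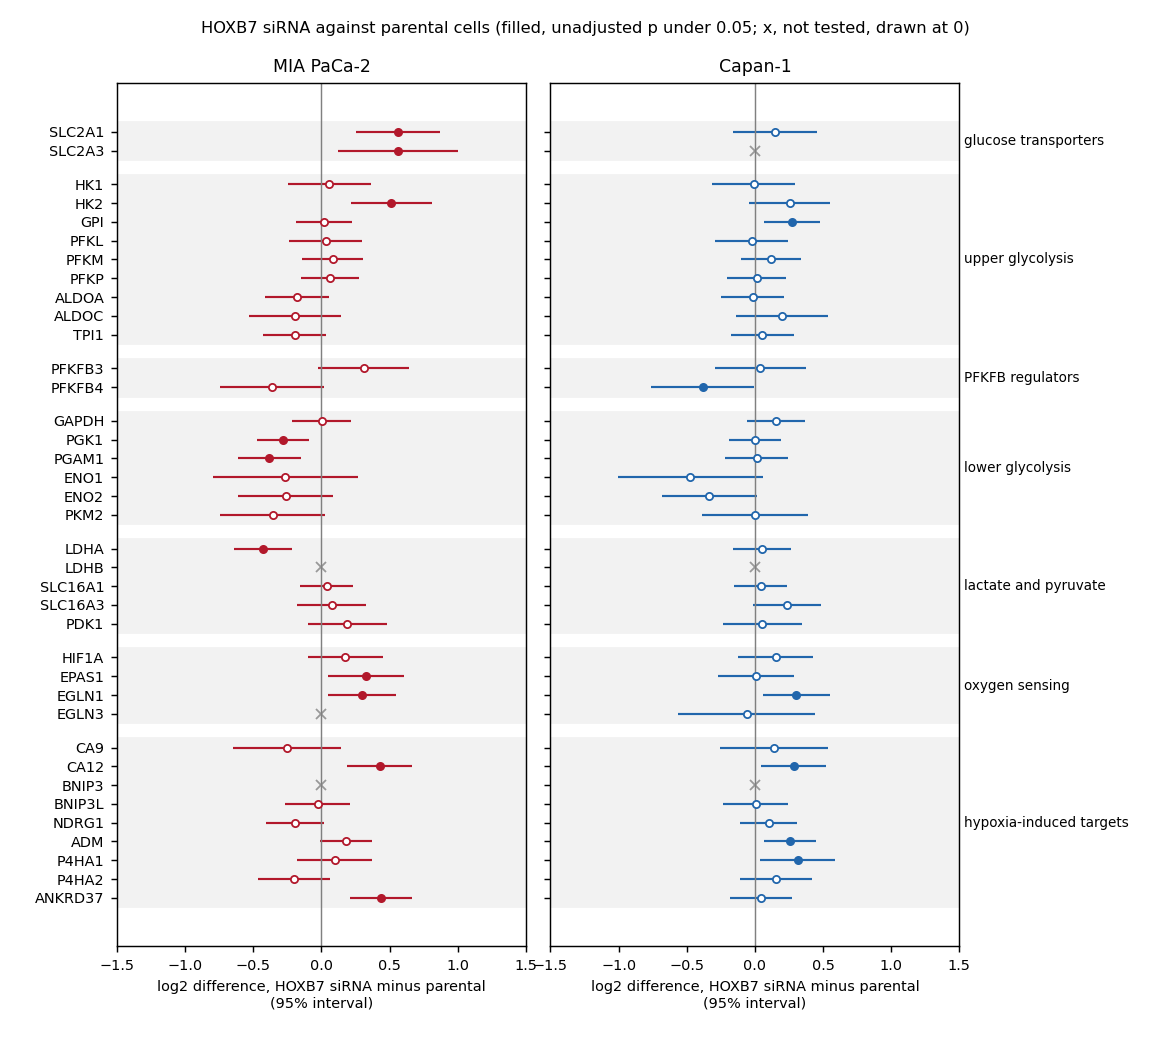
Differences between HOXB7 siRNA and parental cells on the log2 scale with 95% intervals, MIA PaCa-2 on the left and Capan-1 on the right, for the brightest probe of each gene. All values lie between -0.48 and 0.56, with 10 filled points in MIA PaCa-2 and the 6 filled points in Capan-1 that the brightest probe gives.

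The third comparison asks the same in Capan-1. Of 34 genes tested, limma called 0 higher and 0 lower, where 0.0053% of all genes were called higher and 0% lower, and 7 genes (20.6%) had an unadjusted p under 0.05, against 15.4% of all genes. Of the 7, 5 were higher and 2, PFKFB3 by its dimmer probe and PFKFB4, were lower. The interval rule called 0 of 7 genes with 2 or more probes and 0 of 33 with single probes allowed, against 0.242% and 1.66% of all eligible genes. The 2 siRNA arrays were both above the 2 parental ones for 17 genes (50%) and below for 3 (8.82%), against 27.2% and 26.8% of all genes. The median difference was 0.053 against 0.0016 over all genes. These values move with the scaling. With spike-in scaling the median of all genes was -0.28 and that of these genes -0.23, and without scaling the medians were -0.16 and -0.10, so relative to all genes the shift was 0.051 in both. With normexp background correction that shift was -0.016.

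The 5 genes with the smallest p in Capan-1 did not pass either, and none of the 5 had overlapping arrays. ADM read 0.70 and 0.64 in parental cells and 0.92 and 0.93 after siRNA (0.26 ± 0.078, adjusted p = 0.294). GPI read 5.74 and 5.82 before and 6.0 and 6.10 after (0.27 ± 0.084, adjusted p = 0.299). EGLN1 was 1.29 and 1.24 before and 1.66 and 1.48 after (0.30 ± 0.10, adjusted p = 0.316). The EGLN1 difference in MIA PaCa-2 was also 0.30, but with spike-in scaling it was 0.21 there and 0.020 in Capan-1. CA12 read -1.56 and -1.57 before and -1.21 and -1.35 after (0.28 ± 0.098, adjusted p = 0.323), and P4HA1 0.45 and 0.43 before and 0.66 and 0.85 after (0.31 ± 0.11, adjusted p = 0.335). With spike-in scaling all 5 lay close to 0, ADM, GPI and CA12 just below it, EGLN1 at 0.020 and P4HA1 at 0.028. LDHA, PGK1 and GAPDH differed by 0.051 ± 0.087, 7.7e-05 ± 0.077 and 0.15 ± 0.089, with 95% intervals -0.16 to 0.26, -0.19 to 0.19 and -0.060 to 0.37. Of the wider lists, none of 37 glycolysis genes, 16 oxygen-sensing genes or 37 further hypoxia-induced genes was called in Capan-1.

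The difference of the siRNA effects, MIA PaCa-2 minus Capan-1, was tested in the same fit. Of 35 genes limma called 0 in either direction, against 0.00486% of all genes in each, and 5 (14.3%) had an unadjusted p under 0.05, against 13.1% of all genes. LDHA differed by -0.48 ± 0.12 (adjusted p = 0.284), EGLN3 by 1.11 ± 0.30 (adjusted p = 0.295) and ANKRD37 by 0.39 ± 0.13 (adjusted p = 0.379). The MIA PaCa-2 side of EGLN3 was not well above background on any array, so that value has no firm size. PGAM1 differed by -0.40 ± 0.14 (adjusted p = 0.381) and PGK1 by -0.28 ± 0.11 (adjusted p = 0.437). Responses in one line and not in the other were therefore not shown to differ between the lines for any of these genes.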

How the data were processed

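Total RNA of 2 cell lines, with and without HOXB7 siRNA, was measured on 8 one-color Agilent 4x44K arrays, and the authors extracted the deposited spot intensity values with Agilent Feature Extraction 9.5.3. The value table that the authors deposited held log2 values equal to the log2 of the processed signal without further scaling. Here, unflagged spots of a probe were averaged on the log2 processed signal (non-control spots, 43118 per array) and the 75th percentile of the array was subtracted. All 8 arrays entered 1 limma 3.58.1 fit in R 4.3.3 with 4 group means, two-sided, with Benjamini-Hochberg adjustment over all probes tested and a threshold of 0.05. Probes entered a comparison if both arrays of either group had them well above background, and a gene was called when at least 1 probe passed in a direction and none in the other. The fold is a bound where no array of a group had the probe well above background, set against the higher of the dim signal and the lowest signal well above background on each array. The number of arrays, 2 per group, limits the precision.

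Samples were grouped by the cell line and treatment in the labels. The members and lists were chosen with earlier results of these data known. All members are named: those past the threshold with full values, the 5 with the smallest p where fewer passed, and list genes past the threshold up to 10 per list and comparison, of which 1 is not reported here. The alternatives were normexp background correction with an offset of 50, quantile, spike-in and no scaling, kept outlier spots, the deposited value table, other filters on dim probes, the compared arrays alone, an intensity trend, the brightest probe alone, a replicate block, each array left out, and an interval rule modelled on that of the study (99%), with windows of 1000 probes chosen here. The fit was tested on simulated data. Same-numbered siRNA and parental arrays deviated from their group means with correlations of 0.023 (MIA PaCa-2) and 0.038 (Capan-1). Promoters and probes were read with Python 3.11.15, and figures drawn with matplotlib 3.10.9.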

Additional observations from a re-analysis of the deposited data

How the results depend on the processing

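Over the 54 named results, 990 of 1017 values under the alternatives kept their direction and side of the threshold, 16 no longer passed, 8 passed anew and 3 reversed. The alternatives were not all distinct. Kept outlier spots and the deposited value table gave the same calls. Leaving out either array of a group not compared also gave the same calls over all genes. Between the parental lines, 25 to 26 genes were higher and 6 lower with any 1 array left out, and the other alternatives gave 25 to 27 higher and 5 to 6 lower. ENO1 missed the threshold under 6 alternatives, the second probes of LDHA and PFKFB3 under 4 each, and CA9 and the second probe of PFKP under 1 each; the cause was not tested. In MIA PaCa-2 after siRNA, the counts of 0 higher and 0 lower became 3 higher and 2 lower with normexp background correction and 3 higher and 3 lower with an intensity trend in the spread, and both counts were 0 with any 1 array left out; over all genes the calls rose to 439 higher and 507 lower and to 590 and 680 under these 2 alternatives. In Capan-1 with spike-in scaling, ADM turned to -0.029, GPI to -0.015 and CA12 to -0.0014. A replicate block gave 26 higher and 6 lower genes between the parental lines and 0 in each siRNA comparison; over all genes in MIA PaCa-2 its calls numbered 0, against 307 higher and 312 lower without it, and the numbers were not taken to pair the arrays. The arrays of MIA PaCa-2 alone also gave 0 calls over all genes. In MIA PaCa-2 the calls over all genes were 588 higher and 209 lower without siRNA replicate 2, 101 and 46 without siRNA replicate 1, 75 and 97 or 77 and 115 without parental replicate 1 or 2, 51 and 41 without either Capan-1 siRNA array, and 12 and 18 without either Capan-1 parental array. In Capan-1 the calls of 1 higher and 0 lower became 61 and 7 or 123 and 45 without siRNA replicate 1 or 2, and 1 and 36 or 2 and 46 without parental replicate 1 or 2. With normexp background correction the parental differences of SLC2A3, EPAS1, EGLN3 and CA12 came to 2.10, -3.35, -0.80 and -1.03. LDHB, BNIP3 and the second probe of HK2 lay too close to background to be tested.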
